A study of Mus musculus with 6 samples.

Results

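The genes described here are 10 genes of MHC class I antigen presentation in TKPTS cells, a mouse kidney proximal tubule line. They are the light chain gene B2m, the heavy chain genes H2-K1 and H2-D1, the transporter genes Tap1 and Tap2, the loading factor gene Tapbp, the immunoproteasome genes Psmb8, Psmb9 and Psmb10, and the transactivator gene Nlrc5. They were chosen by name, as the rows of the deposited gene table whose gene name equalled 1 of these names. The rule uses no measured value, but the names were chosen with earlier results of these data known. All 10 were found among the 29595 genes of the table, and all 10 were among the 17824 genes tested after genes with low counts had been left out.

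The study transfected TKPTS cells in culture plates and sequenced their RNA 24 h later, to learn which genes respond to HNF3α, a forkhead transcription factor whose gene symbol is Foxa1. The Hnf3a group (3 libraries) received pcDNA3.1-Hnf3a-Flag, a plasmid that carries Flag-tagged HNF3α, and the pcDNA group (3 libraries) received pcDNA3.1-Flag, the same plasmid without the insert. All 6 libraries therefore come from transfected cells of 1 established line, and their labels name no cytokine treatment. The share of cells that took up plasmid is not given, so each value is an average over cells with and without it, and fewer expressing cells cannot be told apart from less RNA per cell. Nothing in the labels beyond the replicate numbers says how separate the cultures of a group were, so that p-values measure only the spread between these samples.

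Class I molecules show peptides from inside the cell to CD8+ T cells. The proteasome cuts proteins into peptides, the TAP transporter carries these into the endoplasmic reticulum, and loading factors fit them into the groove of a heavy chain bound to β2-microglobulin. Interferons raise most genes of the pathway, partly through Nlrc5, which acts at class I promoters, and tubular epithelium is known to raise its class I molecules in inflamed kidneys.

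7 of the members share a region of chromosome 17, the mouse MHC, in the GRCm38 build. Psmb10 and Nlrc5 lie on chromosome 8 and B2m on chromosome 2. The MHC members span 1351.6 kb, from 33915899 (Tapbp) to 35267499 (H2-D1). Tap1 (17, 34187553 to 34197225, plus strand) and Psmb9 (17, 34181987 to 34187764, minus strand) start head to head. By these deposited coordinates their gene bodies overlap by 212 bases. By the RefSeq starts (Tap1 34187556, Psmb9 34187330) they do not overlap, with 225 bases between the starts. Psmb8 (17, 34197721 to 34201454) and Tap2 (17, 34203527 to 34216321) follow on the plus strand.

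The promoters of H2-K1 and B2m are shown because the upstream elements through which class I genes are known to be controlled can be read in them. The stretches are from RefSeq, build GRCm38.p6, on the coding strand. Capitals mark, from left to right in H2-K1, the κB motif (GGGNNTTNC), the interferon response motif (AANNGAAA), the CRE core (TGACG) and the CCAAT box, each searched on both strands. The H2-K1 stretch is chr17:34000353-34000462 on the minus strand, 115 to 6 bases before the start, and the B2m stretch is chr2:122147544-122147653 on the plus strand, 143 to 34 bases before the start.
H2-K1: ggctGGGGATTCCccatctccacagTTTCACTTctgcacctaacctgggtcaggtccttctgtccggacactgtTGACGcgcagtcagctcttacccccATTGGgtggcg
B2m: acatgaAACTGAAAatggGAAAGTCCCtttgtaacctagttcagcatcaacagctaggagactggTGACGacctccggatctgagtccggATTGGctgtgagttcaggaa
No 2 capitalised motifs overlap. In H2-K1 the κB motif precedes the interferon response motif, and in B2m it follows it. Promoter windows of 250 bases before to 50 bases after the start were matched for 8 members, all but Tap2 and Nlrc5. The starts are those of RefSeq, which differ from the ends of the gene bodies given here. They lie well inside the gene body for Tapbp (33919478), Psmb8 (34198195), Psmb9 (34187330) and H2-D1 (35263094). For Psmb10 the RefSeq start (105938392) lies outside the gene body. The κB motif was found in 3 of the 8, B2m, H2-K1 and H2-D1, and in 15.2% of all 32851 windows. The interferon response motif was found in the same 3 members and in 23.9% of all windows. The CRE core was found in 5 members (the same 3, Tap1 and Psmb9) and in 20.8% of windows, and the CCAAT box in 6 members and 37.4% of windows. The windows of Tap1 (34187306 to 34187605) and Psmb9 (34187281 to 34187580) are largely the same bases. Their CRE core is the same site read from both strands, and so is their CCAAT box, so these members are not separate finds. The letters TGTTTNC, a forkhead motif, were found in 1 of the 8 windows, that of Tapbp, and in 20.5% of all windows. The match lies 131 to 125 bases before the RefSeq start of Tapbp, which is inside its gene body by the deposited coordinates. A match of letters describes the window only.

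H2-K1 and H2-D1 are close paralogues, and a count can be trusted only if reads tell them apart. Their coding sequences, of 1107 and 1086 bases, were 88.3% identical when aligned. The longest run that they share has 91 bases, shorter than a read of 150 bases. It lies in exon 4 of both genes, which codes for the heavy chain domain next to the membrane, at chr17:33997343-33997433 on the minus strand (H2-K1) and chr17:35265911-35266001 on the plus strand (H2-D1).
H2-K1 and H2-D1, shared run: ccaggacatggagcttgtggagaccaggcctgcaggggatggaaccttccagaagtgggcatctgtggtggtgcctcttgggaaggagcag
Of 150-base windows of the coding sequence, 0 of 96 in H2-K1 and 4 of 94 in H2-D1 were also found in another annotated gene, in the latter case H2-Q1. For the other 8 members no such window was found. Annotated genes overlap 8 members, all but H2-K1 and H2-D1. The sources do not say if strand was used in counting, and reads of Tap1 and Psmb9 in their 212 shared bases cannot be told apart. On its own strand Tapbp overlaps Zbtb22, which stood at 8.93 FPKM in the Hnf3a group against 111 FPKM for Tapbp. FPKM is fragments per kilobase of transcript, scaled to library size, and is the scale of every level given here. The antisense neighbors other than Tap1 and Psmb9 stayed below 1 FPKM in both groups.

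The total estimated count per library lay between 60473818 and 71154667. Foxa1 (ENSMUSG00000035451) was at 334, 296 and 284 FPKM in Hnf3a replicates 1, 2 and 3, and at 9.49, 9.54 and 9.96 FPKM in pcDNA replicates 1, 2 and 3. The log2 difference between groups was 4.97 ± 0.067 (SE, edgeR adjusted p 5.99e-10), and transcripts of plasmid and chromosome are not separated in the table. Defining markers of the proximal tubule were close to absent. Lrp2, Cubn, Slc5a2 and Hnf4a had means under 0.05 FPKM in both groups, whereas the kidney epithelial factor Pax8 stood at 29.7 FPKM in the Hnf3a group and 29.2 FPKM in the pcDNA group. Hnf3a replicates 2 and 3 stood apart in transcripts of other cell types. The summed level of 8 fibroblast markers was 0.228, 7.74 and 9.56 FPKM in Hnf3a replicates 1, 2 and 3 against 0.119 to 0.202 FPKM in the pcDNA libraries. The summed level of 10 leukocyte markers was 1.13, 2.14 and 3.09 FPKM against 1.13 to 1.19 FPKM, with Cd52 and Tyrobp at 0 in every pcDNA library and in Hnf3a replicate 1. The 12 macrophage markers summed to 39.3 to 46.0 FPKM against 53.5 to 56.7 FPKM, sums led by Cd14 (22.7 against 36.6 FPKM), with C1qa, Fcgr3 and Msr1 at 0 in the same 4 libraries. Of the 6 macrophage markers tested, Cd14 and Mpeg1 were called lower (edgeR adjusted p 2.63e-06 and 0.00759), and 4 had log2 fold changes above zero. More than 12 counts were reached by 4, 12 and 11 of the 12 in Hnf3a replicates 1, 2 and 3, and by 6, 5 and 5 in pcDNA replicates 1, 2 and 3. The 6 endothelial markers summed to 0.478 to 0.521 FPKM against 0.758 to 1.01 FPKM, sums led by Cdh5 (0.362 against 0.846 FPKM). Of the 5 endothelial markers tested 4 had log2 fold changes above zero, and 1 was called in each direction. Tek, with 11, 15 and 16 counts in the Hnf3a libraries and 0 in every pcDNA library, was called higher (edgeR adjusted p 0.0194). Cdh5 was called lower (log2 fold change -1.23, edgeR adjusted p 0.000821). Over all tested genes 3.17% were called in either direction. The part of these transcripts in the results was not tested.

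Levels of the 10 members covered a wide range in the pcDNA group. B2m was highest, at 797 FPKM, and stood at the 99.9th percentile of the tested genes. H2-K1 (133 FPKM), H2-D1 (131 FPKM) and Tapbp (115 FPKM) followed. Values of H2-D1 overlapped those of H2-K1 and of Tapbp, while H2-K1 and Tapbp did not overlap. Psmb10 (58.6 FPKM), Psmb8 (32.2 FPKM), Tap1 (26.2 FPKM), Tap2 (17.1 FPKM) and Psmb9 (9.24 FPKM) came next, each without overlap with its neighbor. Nlrc5 was lowest, at 2.39 FPKM and percentile 44.3.

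**Figure D1:**
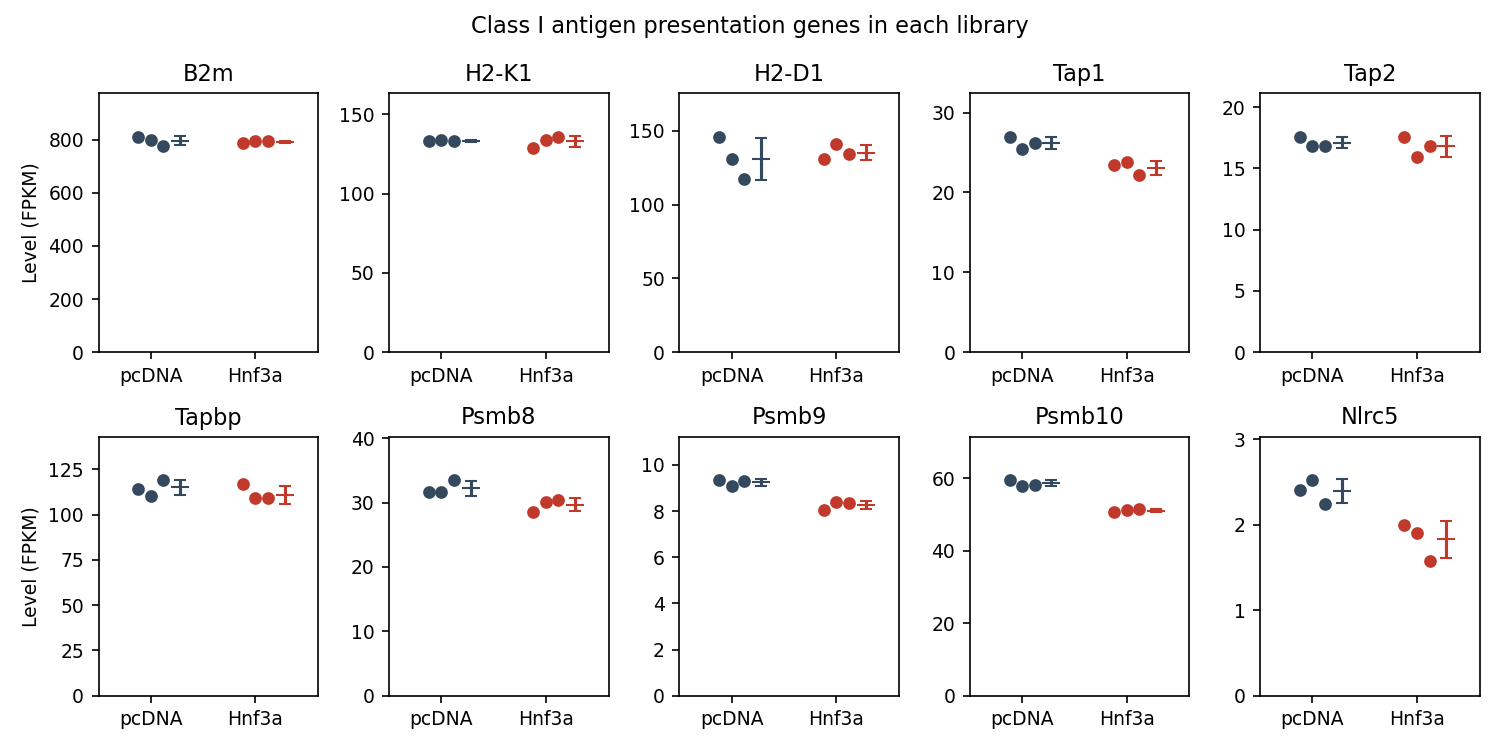
Level in FPKM (vertical axes, from 0) of each of the 10 members in the 3 pcDNA and 3 Hnf3a libraries, with 1 point per library and the mean ± SD of each group beside the points. B2m, H2-K1, H2-D1, Tap2 and Tapbp overlap between groups, and all Hnf3a points of Tap1, Psmb8, Psmb9, Psmb10 and Nlrc5 sit below all pcDNA points.

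Of the 10 members, 3 were lower in the Hnf3a group at an edgeR adjusted p under 0.05, Psmb10, Tap1 and Nlrc5, and 0 were higher. Over all 17824 tested genes, 3.17% were called in either direction and 2.13% were called lower. The 3 falls were of modest size, 13.3% for Psmb10, 12.3% for Tap1 and 24.2% for Nlrc5. The groups did not overlap for 5 members, these 3 with Psmb8 and Psmb9, all lower in the Hnf3a group, where 9.81% of all tested genes were separated in that direction and 9.12% in the other. The light chain, the heavy chains, Tap2 and Tapbp were not called. The median log2 fold change of the 10 members was -0.087, with 9 of 10 below zero, against a median of 0.001 and 49.8% below zero over all tested genes. The count of members called depended on the libraries. It was 1, Psmb10, when Hnf3a replicate 2, pcDNA replicate 1 or pcDNA replicate 3 was left out. A fit without Hnf3a replicates 2 and 3 together leaves 1 Hnf3a library, which is assumed to vary like the controls.

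B2m (ENSMUSG00000060802; 2, 122147686 to 122153083) codes for β2-microglobulin, the light chain that every classical class I molecule needs to reach the surface. Its level was 789, 796 and 796 FPKM in Hnf3a replicates 1, 2 and 3, and 812, 801 and 778 FPKM in pcDNA replicates 1, 2 and 3. The groups overlapped, and the fitted log2 fold change of -0.015 had a 95% confidence interval from -0.073 to 0.043 (edgeR adjusted p 0.896).

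H2-K1 (ENSMUSG00000061232; 17, 33996017 to 34000347, minus strand) and H2-D1 (ENSMUSG00000073411; 17, 35262730 to 35267499, plus strand) code for the classical heavy chains K and D, which hold the peptide. H2-K1 was at 129, 134 and 136 FPKM in the Hnf3a libraries and at 133, 134 and 133 FPKM in the pcDNA libraries. The groups overlapped, with a log2 fold change of -0.014 (95% interval -0.076 to 0.047, edgeR adjusted p 0.906). H2-D1 was at 131, 141 and 134 FPKM in the Hnf3a libraries and at 146, 131 and 117 FPKM in the pcDNA libraries. It varied more than H2-K1 among the controls (SD 14.1 against 0.677 FPKM, n = 3), and its log2 fold change of 0.031 had the wide 95% interval from -0.15 to 0.21 (edgeR adjusted p 0.928). The balance of chains was then taken as ratios, for which 3 against 3 libraries allow no exact permutation p below 0.1. H2-K1 over B2m was 0.167 ± 0.0035 in the Hnf3a group and 0.167 ± 0.0036 in the pcDNA group (ratios of FPKM, SD, n = 3, exact permutation p = 1, two-sided). H2-D1 over B2m was 0.17 ± 0.0057 and 0.165 ± 0.014 (exact permutation p = 0.6, n = 3 per group).

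Tap1 and Tap2 code for the subunits that pair as the peptide transporter of the endoplasmic reticulum. Tap1 (ENSMUSG00000037321) was at 23.4, 23.8 and 22.2 FPKM in Hnf3a replicates 1, 2 and 3, and at 27.0, 25.5 and 26.2 FPKM in pcDNA replicates 1, 2 and 3. Every Hnf3a library was below every pcDNA library. This fall, of 0.19 ± 0.037 (SE) on the log2 scale (edgeR adjusted p 0.0127), was larger than the spread between replicates. Tap1 held its call in 10 of 16 other settings and lost it in 6. It had an adjusted p of 0.0528 without Hnf3a replicate 2, 0.102 without pcDNA replicate 1, 0.0627 without pcDNA replicate 3, and 0.0885 to 0.0956 in the 3 limma fits, all with a fall.

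Tap2 (ENSMUSG00000024339) was at 17.6, 15.9 and 16.8 FPKM in the Hnf3a libraries and at 17.6, 16.8 and 16.8 FPKM in the pcDNA libraries. The groups overlapped, with a log2 fold change of -0.036 (95% interval -0.13 to 0.062, edgeR adjusted p 0.831). The ratio of Tap1 to Tap2 was 1.33, 1.5 and 1.32 in Hnf3a replicates 1, 2 and 3, where the pcDNA replicates had 1.53, 1.51 and 1.56. It was lower in 3 of 3 Hnf3a libraries, though Hnf3a replicate 2 came close to the controls. The exact two-sided permutation test gave p = 0.1, the smallest that 3 against 3 libraries allow. Adjusted over the 7 ratios compared, this p was 0.233.

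Tapbp (ENSMUSG00000024308; 17, 33915899 to 33926197, plus strand) codes for tapasin, which ties the empty heavy chain to TAP. Its level was 117, 109 and 109 FPKM in the Hnf3a libraries and 114, 110 and 119 FPKM in the pcDNA libraries. The groups overlapped. On the log2 scale the difference was -0.047 (95% interval -0.13 to 0.034, edgeR adjusted p 0.679), and it was 0.03 without Hnf3a replicates 2 and 3.

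Psmb8, Psmb9 and Psmb10 code for the inducible catalytic subunits of the proteasome, which replace the products of Psmb5, Psmb6 and Psmb7 and shift cleavage towards peptides that fit class I grooves. All 3 were lower in each Hnf3a library than in any pcDNA library, and Psmb10 passed the test. Psmb10 (ENSMUSG00000031897; 8, 105935735 to 105938104, minus strand) was at 50.6, 51.2 and 51.4 FPKM in Hnf3a replicates 1, 2 and 3, and at 59.5, 57.9 and 58.2 FPKM in pcDNA replicates 1, 2 and 3. Its groups were tight and well apart, with a log2 fold change of -0.21 ± 0.033 (SE, edgeR adjusted p 0.00277). The call held in all 16 other settings. Without Hnf3a replicates 2 and 3 together, which leaves 1 Hnf3a library, the log2 fold change was -0.21.

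Psmb8 (ENSMUSG00000024338) was at 28.5, 30.1 and 30.4 FPKM in the Hnf3a libraries and at 31.6, 31.6 and 33.5 FPKM in the pcDNA libraries. The groups were separate but close. Psmb8 differed by -0.13 on the log2 scale (95% interval -0.21 to -0.047), with an edgeR adjusted p of 0.102. Psmb9 (ENSMUSG00000096727), which shares its start region with Tap1, was at 8.06, 8.39 and 8.35 FPKM in the Hnf3a libraries and at 9.34, 9.07 and 9.31 FPKM in the pcDNA libraries. Again no library crossed over. Psmb9 differed by -0.17 on the log2 scale (95% interval -0.27 to -0.066), with an edgeR adjusted p of 0.0837. Psmb8 and Psmb9 passed the threshold in 0 of 16 other settings, with adjusted p from 0.054 to 0.322 and from 0.0753 to 0.26, and their log2 fold changes were negative in each.

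**Figure D2:**
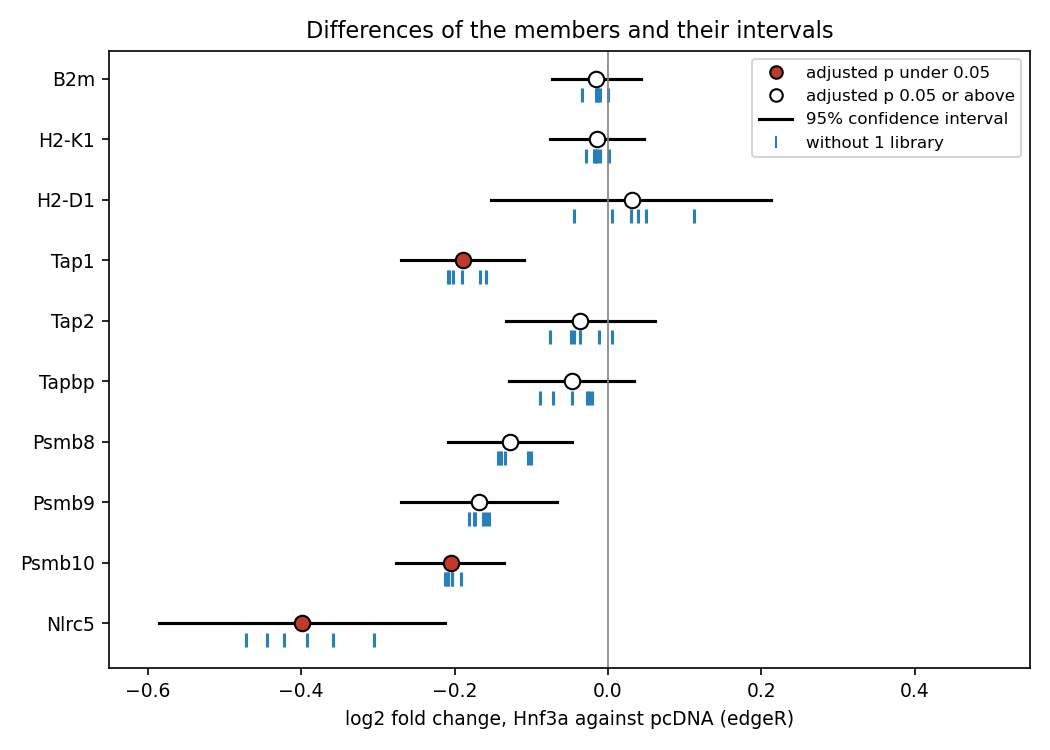
Fitted log2 fold change of each member, Hnf3a against pcDNA (horizontal axis), with its 95% confidence interval, filled where the edgeR adjusted p was under 0.05, and with blue ticks for the 6 fits that each leave out 1 library. The intervals of Tap1, Psmb8, Psmb9, Psmb10 and Nlrc5 lie below zero, and those of B2m, H2-K1, H2-D1, Tap2 and Tapbp span it.

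Nlrc5 (ENSMUSG00000074151; 8, 94434356 to 94527272, plus strand) codes for the transactivator of class I genes, a member of the NLR family related to the class II transactivator. It was at 1.99, 1.9 and 1.58 FPKM in Hnf3a replicates 1, 2 and 3, and at 2.41, 2.52 and 2.24 FPKM in pcDNA replicates 1, 2 and 3. Every Hnf3a library was below every pcDNA library, with Hnf3a replicate 3 lowest. On the log2 scale it fell by 0.40 ± 0.087 (SE, edgeR adjusted p 0.0223), the largest fall of the 10. Nlrc5 was also the member with the fewest counts, 991 to 1579 per library, worth about 248 to 395 sequenced fragments. The call held in 8 of 16 other settings. It was lost without Hnf3a replicate 2 (adjusted p 0.094), Hnf3a replicate 3 (0.0541), pcDNA replicate 1 (0.124), pcDNA replicate 2 (0.156) or pcDNA replicate 3 (0.0518), and in the 3 limma fits. Without Hnf3a replicates 2 and 3 together, which leaves 1 Hnf3a library, the log2 fold change was -0.26.

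The inducible subunits were then set against the constitutive subunits they replace, as ratios of FPKM within each library. The constitutive genes were not called. Psmb5, Psmb6 and Psmb7 had log2 fold changes of 0.023, -0.045 and -0.059 (edgeR adjusted p 0.867, 0.753 and 0.527). Psmb8 over Psmb5 was 0.199, 0.21 and 0.203 in Hnf3a replicates 1, 2 and 3, where the pcDNA replicates had 0.228, 0.218 and 0.234. It was lower in 3 of 3 Hnf3a libraries, by 9.91% (exact permutation p = 0.1, two-sided). Psmb10 over Psmb7 was 1.11, 1.06 and 1.1 against 1.27, 1.16 and 1.2, again without overlap and lower by 9.64% (exact permutation p = 0.1). Psmb9 over Psmb6 was 0.106, 0.0985 and 0.101 against 0.118, 0.105 and 0.109. Here Hnf3a replicate 1 overlapped the controls, and the exact permutation p was 0.2. Adjusted over the 7 ratios, the p-values were 0.233, 0.233 and 0.35. By FPKM the inducible share differed between sites, but such shares depend on the transcript lengths behind FPKM. In pcDNA replicate 1 the estimated counts were 7219 for Psmb8 and 8408 for Psmb5, against 6862 for Psmb10 and 10844 for Psmb7. By counts, unlike by FPKM, Psmb8 was closer to the level of its counterpart than Psmb10. The shares that follow are of FPKM. In the pcDNA group Psmb10 made up 54.7% of Psmb10 and Psmb7 together, Psmb8 18.5% of its pair and Psmb9 9.97% of its pair, and in the Hnf3a group these shares were 52.2%, 17% and 9.22%.

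**Figure D3:**
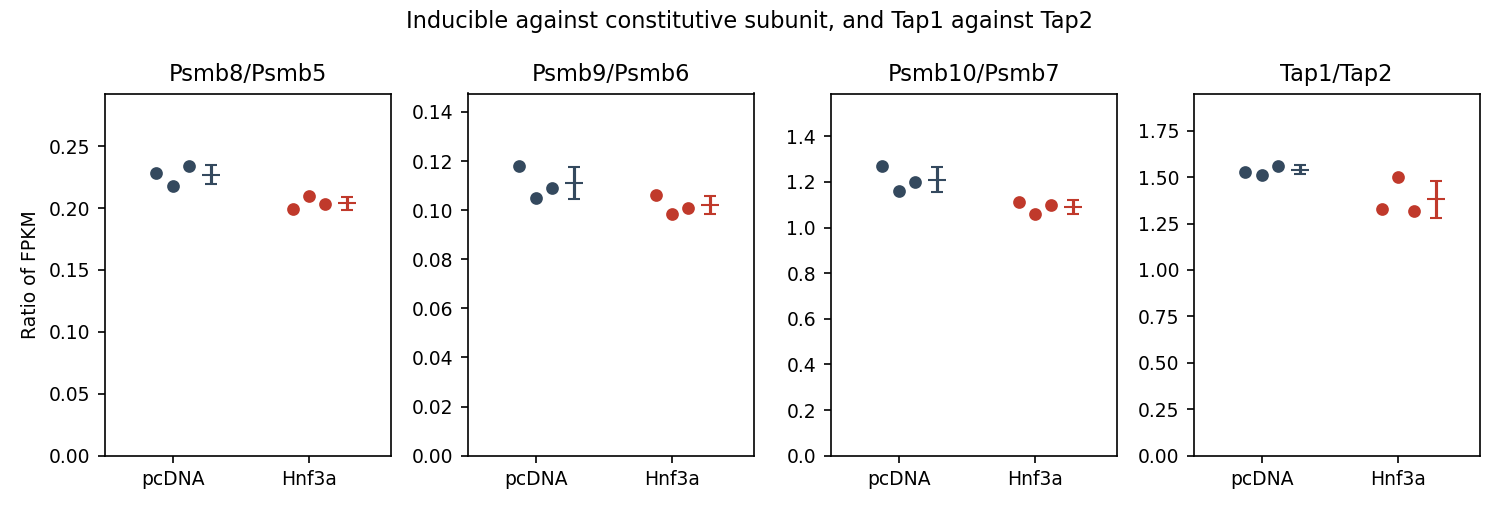
Ratio of FPKM (vertical axes, from 0) of each inducible proteasome subunit to its constitutive counterpart and of Tap1 to Tap2, with 1 point per library and the mean ± SD of each group beside the points. The groups do not overlap for Psmb8/Psmb5, Psmb10/Psmb7 and Tap1/Tap2, and they overlap for Psmb9/Psmb6.

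Other genes of the class I pathway were read from 5 lists of 90 genes in all, of which 87 were in the table and 84 were tested. Of the 84, 8 were called, all lower in the Hnf3a group. This is 9.52%, beside 2.13% of all tested genes called lower. The median log2 fold change was -0.037 and 59 of 84 were below zero, beside 49.8% of all tested genes. For 18 of the 84 the groups were separate with Hnf3a lower, and for 4 with Hnf3a higher, where 9.81% and 9.12% of all tested genes were so separated. With Hnf3a replicate 2 or pcDNA replicate 1 left out the number called was 4, with pcDNA replicate 2 left out it was 3, and with pcDNA replicate 3 left out it was 5. It was 7 without Hnf3a replicates 2 and 3, 6 lower and 1 higher, of which 5 were among the 8.

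Of the other heavy chain genes, 17 were tested and 0 were called at an edgeR adjusted p under 0.05. An unadjusted p under 0.05 was reached by 6 of them, in both directions, and by 2412 of all 17824 tested genes. The median log2 fold change of the 17 was -0.018, and 10 of 17 were below zero, beside 49.8% of all tested genes. The most abundant were the nonclassical genes H2-Q6, at 15.4 FPKM in the Hnf3a group against 16.8 FPKM (log2 fold change -0.13, edgeR adjusted p 0.342), and H2-T10, at 10.6 FPKM against 11.5 FPKM (-0.12, adjusted p 0.382). Genes of the Q and T clusters resemble each other closely, so their counts are uncertain.

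Of the 15 genes of peptide loading and trimming, 1 was called, Tapbpl, which was lower, where 2.13% of all tested genes were called lower. Tapbpl codes for TAPBPR, a tapasin relative that edits the peptides bound to class I molecules. It was at 14.2, 15.4 and 15.4 FPKM in Hnf3a replicates 1, 2 and 3, and at 17.8, 18.7 and 17.6 FPKM in pcDNA replicates 1, 2 and 3. Every Hnf3a library was below every pcDNA library, with a log2 fold change of -0.28 ± 0.05 (SE, edgeR adjusted p 0.00663), and without pcDNA replicate 2 the adjusted p was 0.0587. The most abundant genes of the list were Pdia3 (227 against 228 FPKM) and Calr (217 against 212 FPKM), chaperones of the loading complex, with log2 fold changes of -0.01 and 0.022 (edgeR adjusted p 0.945 and 0.82). The median of the list was 0.013.

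The constitutive core of the proteasome had 14 tested genes, of which 0 were called at an edgeR adjusted p under 0.05. An unadjusted p under 0.05 was reached by 3, all lower in the Hnf3a group, beside 2412 of all 17824 tested genes. Of the 14, 13 were below zero, beside 49.8% of all tested genes. Log2 fold changes of the 14 lay between -0.084 and 0.023, with a median of -0.054. The most abundant were Psma6 (189 against 198 FPKM, log2 fold change -0.082, adjusted p 0.345) and Psmb5 (145 against 142 FPKM).

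Among 10 genes of proteasome activators and assembly factors, 2 were called, both lower, where 2.13% of all tested genes were called lower. These 2, Psme1 and Psme2, code for the α and β subunits of the interferon-inducible cap that opens the proteasome. Psme2 was at 60.9, 64.6 and 64.6 FPKM in the Hnf3a libraries and at 71.3, 73.7 and 75.1 FPKM in the pcDNA libraries. All Hnf3a values lay below all pcDNA values. The log2 fold change of -0.22 (SE 0.036, edgeR adjusted p 0.00303) held its call in all 16 other settings. It was -0.27 without Hnf3a replicates 2 and 3, which leaves 1 Hnf3a library. Psme1 was at 96.4, 95.9 and 97.3 FPKM against 105, 106 and 104 FPKM. Its groups were also separate, with a log2 fold change of -0.13 (edgeR adjusted p 0.0253), but its call held in 8 of 16 other settings. It was lost without Hnf3a replicate 2 (adjusted p 0.159), pcDNA replicate 1 (0.126), pcDNA replicate 2 (0.15) or pcDNA replicate 3 (0.069), in the 3 limma fits and with the replicate number as a block (0.0619). Psme3, which codes for the cap subunit of nuclear proteasomes, was the most abundant gene of the list, at 106 FPKM in both groups (log2 fold change -0.006, adjusted p 0.973).

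Beside 2.13% of all tested genes called lower, 5 of 28 tested regulators of class I genes were called, all lower. They were Nfkb1, a subunit of NF-κB, Ifngr2 and Ifnar2, chains of the receptors for interferon-γ and for type I interferons, Irf1, an interferon-induced activator of class I promoters, and Rfx5, a subunit of the factor that binds the X box of MHC promoters. Nfkb1 was at 20.8, 20.8 and 19.0 FPKM in the Hnf3a libraries and at 25.3, 25.1 and 24.7 FPKM in the pcDNA libraries. The groups were far apart relative to their spread, with a log2 fold change of -0.32 (SE 0.037, edgeR adjusted p 0.000183). Ifngr2 was at 10.3, 11.3 and 11.7 FPKM against 13.7, 14.1 and 14.1 FPKM, with a log2 fold change of -0.34 (SE 0.049, adjusted p 0.00115).

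Both Nfkb1 and Ifngr2 held their calls in all 16 other settings. Without Hnf3a replicates 2 and 3, which leaves 1 Hnf3a library, their log2 fold changes were -0.27 and -0.44. Irf1 was at 30.5, 31.8 and 31.3 FPKM in the Hnf3a libraries and at 35.7, 34.7 and 34.0 FPKM in the pcDNA libraries, without overlap, and its log2 fold change was -0.16 (edgeR adjusted p 0.0161). Ifnar2 had a log2 fold change of -0.25 (adjusted p 0.0143) and Rfx5 one of -0.18 (adjusted p 0.0479). The calls of Irf1, Ifnar2 and Rfx5 held in 10, 9 and 5 of 16 other settings. Each of the 3 was lost without Hnf3a replicate 2 (adjusted p 0.0757, 0.0899 and 0.219), without pcDNA replicate 1 (0.11, 0.083 and 0.194) and without pcDNA replicate 2 (0.0893, 0.0528 and 0.122). Ifnar2 and Rfx5 were also lost without pcDNA replicate 3 (0.0637 and 0.15), and Rfx5 without Hnf3a replicate 1 (0.091). The most abundant regulators, Irf7 (179 against 176 FPKM) and Stat2 (41.6 against 43.1 FPKM), were not called, with log2 fold changes of 0.014 and -0.056 (adjusted p 0.892 and 0.481). The median of the list was -0.046, and 23 of 28 genes were below zero, beside 49.8% of all tested genes.

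**Figure D4:**
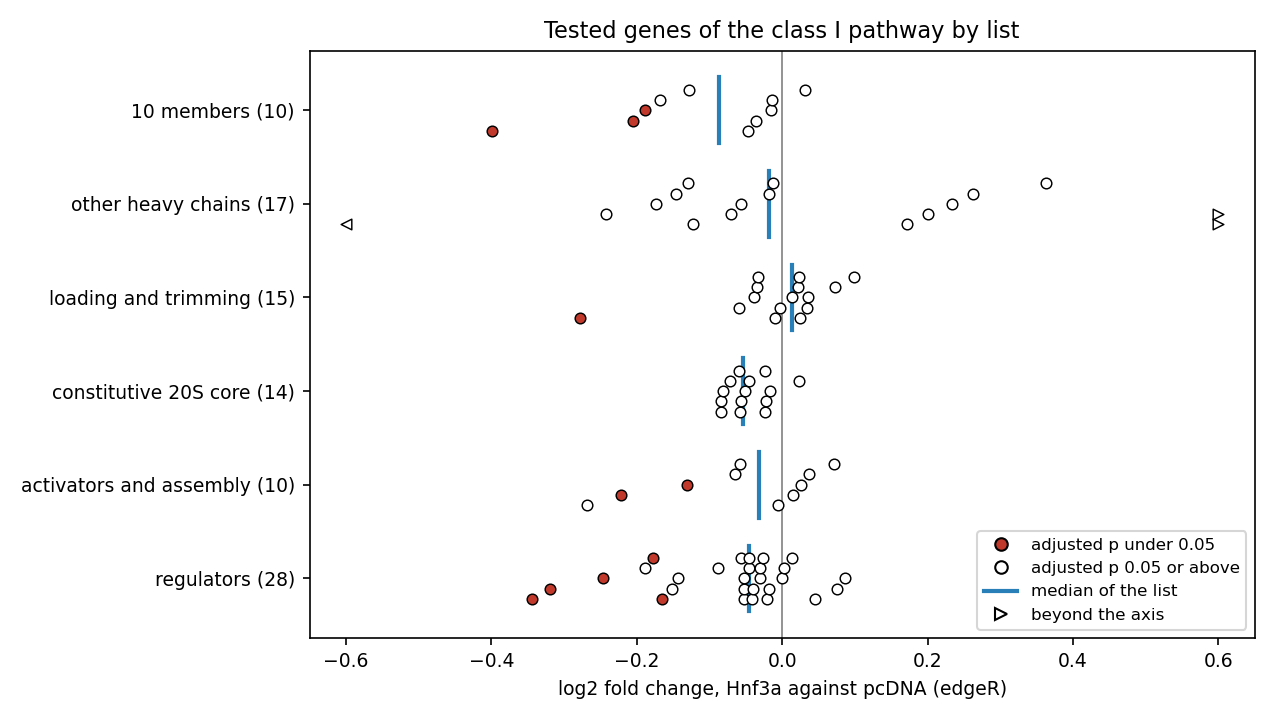
Fitted log2 fold change, Hnf3a against pcDNA (horizontal axis), of every tested gene of the members and of the 5 pathway lists (rows, number of genes in brackets), filled where the edgeR adjusted p was under 0.05, with a blue line at the median of each list and triangles for genes beyond the axis. The 3 called members and the 8 called genes of the lists all lie below zero, and the rows of other heavy chains and of the constitutive core hold no filled point.

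Class II genes, the counterpart for peptides taken up from outside the cell, served as a comparison. Of 13 listed genes, 11 were in the table and 7 were tested, and 0 were called at an edgeR adjusted p under 0.05. An unadjusted p under 0.05 was reached by 2, both higher in the Hnf3a group, beside 2412 of all 17824 tested genes. Cd74, the invariant chain, was at 2.64, 3.32 and 2.94 FPKM in the Hnf3a libraries and at 2.87, 2.91 and 2.35 FPKM in the pcDNA libraries. The groups overlapped (log2 fold change 0.12, adjusted p 0.799). H2-Aa and H2-Ab1, which code for the chains of the class II molecule I-A, were near absent and did not pass the filter. The counts of H2-Aa were 0, 53 and 29 in Hnf3a replicates 1, 2 and 3, where the pcDNA replicates had 0, 0 and 7. Those of H2-Ab1 were 0, 49 and 43 against 0, 7 and 0. These counts were highest in the same replicates 2 and 3 that held the leukocyte and fibroblast transcripts. Ciita, which codes for the class II transactivator, had at most 7 counts in any library.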

How the data were processed

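RNA of 6 TKPTS cultures was sequenced, 3 transfected with the Hnf3a plasmid and 3 with the control plasmid, and the sample labels gave groups and replicate numbers. The authors deposited an estimated count and an FPKM value per gene and library. The submitters' processing notes name cutadapt 1.9, HISAT2 2.0.4, UMI-tools, StringTie 1.3.4d, DESeq2, edgeR and the build mm10, without their order or role. Whether strand was used or duplicates were removed is not given in the sources used here. The deposited estimated counts are whole numbers that favor multiples of 4 at low values (in Hnf3a replicate 1, 1148 genes held 4 counts, 680 held 3 and 378 held 5), so that 1 fragment was taken as worth up to about 4 counts. Coordinates equalled those of GENCODE vM21 for 87.3% of the 29514 genes found in both.

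Genes were filtered with filterByExpr, scaled by TMM and tested two-sided with the quasi-likelihood test of edgeR 4.0.16 (robust fit, no covariate) in R 4.3.3. Adjusted p-values are those of Benjamini and Hochberg across the 17824 tested genes, with a threshold of 0.05. Groups were called not overlapping on TMM-scaled CPM, counts scaled to library size. Levels are the deposited FPKM, and ratios of FPKM were compared by exact permutation. Alternatives were the DESeq2 1.42.0 Wald test, total-count scaling, DESeq2 size factors, limma 3.58.1 with trend on log2(FPKM + 0.1), with pseudocounts of 1 and 0.01, both other filters (at least 1 count in all, and at least 1 FPKM in at least 3 libraries), a replicate block, counts divided by 4, and each library left out. Leaving out Hnf3a replicates 2 and 3 together was added after the data were seen. On the log2(FPKM + pseudocount) scale, changes of low genes are understated. The edgeR, DESeq2 and limma fits were tested on simulated data with changes larger than the falls of the members. That run does not show how well smaller changes are found.

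The members and lists were chosen with earlier results of these data known. Named genes were Foxa1, the members, in each pathway list those past the threshold (at most 6) and the 2 most abundant, Psmb5, Psmb6 and Psmb7, Cd74, H2-Aa, H2-Ab1 and Ciita, and markers of other cell types at 0. Proximal tubule and endothelial markers, Cd14, Mpeg1, Ctss, H2-DMa, H2-Q1 and Zbtb22 were named after their values were seen. Of the proximal tubule markers, 12 of 15 were in the table, and 0 were called. Of the 7 epithelial markers, 2 were called higher and 2 lower, beside 3.17% of all tested genes called in either direction. Promoters were searched with Python 3.11.15 and coding sequences aligned with Biopython 1.88. Intervals cover the spread between these libraries only.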

Additional observations from a re-analysis of the deposited data

How the results depend on the processing

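The counts of genes called depended on the test and on single libraries. With limma and pseudocounts of 0.1, 1 and 0.01 FPKM, 265, 248 and 271 of all genes were called against 565 in the edgeR fit, with 1 of the 10 members and 4 of the other pathway genes in each. Leaving out 1 library at a time gave 263 to 643 genes, 1 to 3 members and 3 to 8 other pathway genes. Without Hnf3a replicates 2 and 3 together, which leaves 1 Hnf3a library that is assumed to vary like the controls, 353 genes and 1 member were called. The cause of these differences was not tested. Members that were not called crossed zero in some fits. Leaving out 1 library, the log2 fold change lay between -0.0286 and 0.00201 for H2-K1 (above zero without Hnf3a replicate 1), -0.0754 and 0.00537 for Tap2 (above zero without Hnf3a replicate 2), -0.0332 and 0.00046 for B2m (above zero without pcDNA replicate 1), and -0.0448 and 0.112 for H2-D1 (below zero without pcDNA replicate 3). Without Hnf3a replicates 2 and 3 it was -0.00703 for H2-D1, 0.0415 for Tap2 and 0.0327 for Tapbp. The DESeq2 Wald test called 3 members and 10 other pathway genes, 1 of them higher. The log2 ratios of the proteasome subunits moved by less than the spread between replicates with CPM, a pseudocount, the block or 1 library left out. Without Hnf3a replicates 2 and 3 the log2 ratio of Psmb9 to Psmb6 was -0.068 against -0.123 with all libraries, also within that spread.

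Same-numbered samples did not deviate together across all tested genes (correlations of -0.008, -0.007 and -0.002). This does not settle if the numbers pair cultures. With the replicate block, 463 genes, 3 members and 6 other pathway genes were called, with Psme1 and Rfx5 lost (adjusted p 0.0619 and 0.0721), and the log2 ratio of Psmb8 to Psmb5 was -0.151. DESeq2 size factors and total-count scaling moved the median of all genes by 0.0015 and 0.0118 on the log2 scale.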
